A study of Homo sapiens with 6 samples.

Results

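Regions bound by GSX2 at the ends of protein-coding genes were examined after chromatin immunoprecipitation from H9 cells, a standard line of human embryonic stem cells, differentiated toward progenitors of the lateral ganglionic eminence. The members were the merged peak regions that held a peak of at least 2 of the 3 replicates and had their median summit within 1 kb of either end of a protein-coding gene. They numbered 598 of 7105 recurrent regions (8.42%, 95% Wilson interval 7.79 to 9.08%). Of all 15743 merged regions, 1449 lay this close to such an end (9.20%, 8.76 to 9.67%). Among regions of a single replicate the share was 851 of 8638 (9.85%, 9.24 to 10.5%), so recurrent regions did not lie at gene ends more often. The members were chosen by the presence of a called peak in each list and by its position, so these counts are a description. Of the 598 members, 270 had a peak in every replicate and 328 in 2 replicates. They lay within 1 kb of an end of 672 of 19974 protein-coding genes.

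Every library came from cells that carried a transgene of wild-type GSX2, tagged with tandem FLAG, behind TRE3G, a promoter that doxycycline switches on. Cultures passed through LDN193189, SB431542 and XAV939, inhibitors of the BMP, TGF-beta and Wnt pathways, and later through IWP2, a blocker of Wnt secretion, with Activin A. Doxycycline was given at 100 ng/mL for 12 hours from day 10. The M2 antibody, which binds FLAG, was used on chromatin of day 10.5 in 3 replicates, which form 1 group. No cells without the transgene or without doxycycline were analysed here, input libraries hold no values here, and the labels do not say whether the line is 1 clone. Peak lists hold no expression or read counts, so the cell identity could not be checked against marker genes and the depth is unknown. The lists held 9859, 7471 and 9122 peaks in replicates 1, 2 and 3. Peak names call the replicates biological and the labels do not say that they were separate cultures, so part of the spread between replicates may be technical.

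GSX2 is a homeodomain transcription factor that gives progenitors of the lateral ganglionic eminence their regional identity and acts largely as a repressor. Homeodomains read short A/T-rich sites with the core TAAT, and in the palindrome TAATTA this core stands on both strands. The start of a gene carries its promoter, where general transcription factors and RNA polymerase assemble. Many promoters of broadly expressed genes are rich in G, C and the CpG dinucleotide, and hold sites of ETS and Sp factors.

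The promoters below show what the summits at gene starts looked like. They are RefSeq windows of build GRCh38.p14 from 250 bases before to 50 bases after a start. Of the members, 141 had their median summit inside such a window, 58 of them with peaks in all 3 replicates. Printed are the 4 strongest of those 58 with TAATTA and the 2 strongest without it. Each runs 5′ to 3′ on the strand of its gene, and capitals mark every TAAT on either strand, read as TAAT or ATTA. Bases are counted from the 5′ end.

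CDC40: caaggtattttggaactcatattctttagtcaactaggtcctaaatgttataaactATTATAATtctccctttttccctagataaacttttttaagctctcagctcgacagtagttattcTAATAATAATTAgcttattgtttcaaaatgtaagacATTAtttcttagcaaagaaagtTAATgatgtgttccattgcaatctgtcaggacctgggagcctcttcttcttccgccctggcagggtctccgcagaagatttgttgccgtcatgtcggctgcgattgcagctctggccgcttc
PLPP3: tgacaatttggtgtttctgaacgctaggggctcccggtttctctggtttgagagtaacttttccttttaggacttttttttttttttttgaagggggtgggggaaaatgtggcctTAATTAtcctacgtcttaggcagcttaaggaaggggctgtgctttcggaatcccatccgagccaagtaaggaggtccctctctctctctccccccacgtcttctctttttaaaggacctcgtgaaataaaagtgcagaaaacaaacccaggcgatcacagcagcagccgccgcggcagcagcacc
MSX2: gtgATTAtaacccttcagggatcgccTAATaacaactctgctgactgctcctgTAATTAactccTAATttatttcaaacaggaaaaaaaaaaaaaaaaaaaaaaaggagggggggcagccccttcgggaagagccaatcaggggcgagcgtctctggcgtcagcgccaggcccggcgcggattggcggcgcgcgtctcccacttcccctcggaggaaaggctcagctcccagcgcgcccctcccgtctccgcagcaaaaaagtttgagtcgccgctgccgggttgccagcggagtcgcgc
EIF2B5: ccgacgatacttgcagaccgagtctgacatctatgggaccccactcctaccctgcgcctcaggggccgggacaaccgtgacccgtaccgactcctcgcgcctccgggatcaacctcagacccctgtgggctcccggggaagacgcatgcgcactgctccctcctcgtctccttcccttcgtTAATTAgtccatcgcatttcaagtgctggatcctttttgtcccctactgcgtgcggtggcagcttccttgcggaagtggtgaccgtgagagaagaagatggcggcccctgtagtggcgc
METTL25: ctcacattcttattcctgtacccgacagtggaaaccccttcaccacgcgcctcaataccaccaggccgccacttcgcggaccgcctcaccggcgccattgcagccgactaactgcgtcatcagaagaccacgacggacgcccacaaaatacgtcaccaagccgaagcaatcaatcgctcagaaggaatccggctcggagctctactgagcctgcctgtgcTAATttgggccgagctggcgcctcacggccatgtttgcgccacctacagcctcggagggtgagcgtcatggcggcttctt
CCNG1: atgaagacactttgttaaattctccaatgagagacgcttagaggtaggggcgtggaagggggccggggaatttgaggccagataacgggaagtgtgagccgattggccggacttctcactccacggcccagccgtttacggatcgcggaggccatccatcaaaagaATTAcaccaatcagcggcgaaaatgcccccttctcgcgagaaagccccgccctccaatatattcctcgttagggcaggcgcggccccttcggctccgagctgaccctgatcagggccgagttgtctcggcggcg

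CDC40, a splicing factor gene (chr6:110180177-110180476, plus strand), had 18.0-fold, 10.1-fold and 17.3-fold enrichment in replicates 1, 2 and 3. Its window held 8 TAAT cores and 1 palindrome, whose centre lay 4.5 bases from the summit at base 134. PLPP3, a lipid phosphate phosphatase gene (chr1:56579514-56579813, minus strand), had 12.98-fold, 9.69-fold and 12.3-fold, with its palindrome 11.5 bases from the summit. In these 2 windows the only palindrome and the summit nearly coincided. MSX2, a homeobox gene of craniofacial and dorsal neural tissue (chr5:174724332-174724631, plus strand), had 10.9-fold, 13.3-fold and 9.37-fold, with 5 TAAT cores, the nearest 2.5 bases from the summit. EIF2B5, which encodes a subunit of a translation initiation factor (chr3:184135108-184135407, plus strand), had 7.78-fold, 15.2-fold and 7.73-fold, and replicate 2 stood apart. Its palindrome was farther from the summit, at 45.5 bases. METTL25, a methyltransferase-like gene (chr12:82358279-82358578, plus strand), had 38.8-fold, 18.7-fold and 27.3-fold with 1 TAAT core, 8.5 bases from the summit. That summit lay 37 bases before the METTL25 start, and an end of CCDC59 was also within 1 kb of it. CCNG1, the cyclin G1 gene (chr5:163437345-163437644, plus strand), had 25.3-fold, 23.02-fold and 29.9-fold with 1 core, 76.5 bases away. METTL25 had the highest mean of all 141 windows, with 1 core and no palindrome.

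Promoters that held a member's summit carried the homeodomain core far more often than promoters at large. TAAT stood on either strand in 124 of 141 member windows (87.9%, 95% Wilson interval 81.5 to 92.3%), against 9409 of 22012 protein-coding windows (42.7%, 42.1 to 43.4%). TAATTA stood in 24 of 141 (17.0%, 11.7 to 24.1%), against 749 of 22012 (3.40%, 3.17 to 3.65%). Over all 797 windows of genes with a member the contrast was smaller. There TAAT stood in 55.7% (52.2 to 59.1%) and TAATTA in 7.53% (5.89 to 9.57%). The intervals do not overlap for either word. They cover counting error only, since windows of 1 gene can overlap. Member windows held less G and C, a median of 57.7% against 62.3% over all windows, so the shares were also taken within classes of GC content. Between 50 and 60% GC, TAATTA stood in 13 of 55 member windows (23.6%, 14.4 to 36.3%) and in 3.35% of all windows of that class. Between 60 and 70% GC it stood in 4 of 50 (8.0%, 3.15 to 18.8%), against 1.10%. Below 50% GC it stood in 6 of 27 (22.2%, 10.6 to 40.8%), against 11.5%, and there the interval holds the share of all windows. At 70% GC or more, 1 of 9 member windows held it, against 0.193%. TAAT itself stood in 96.3% and 90.6% of member and all windows below 50% GC, and in 80.0% and 30.2% between 60 and 70%.

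The core stood close to the summit rather than anywhere in the window. Over the 124 windows with TAAT, the median distance from the nearest core to the summit was 20.5 bases, and 98 had one within 50 bases. Over the 24 windows with TAATTA the median distance was 23.5 bases, and 19 were within 50 bases. Words of 4 bases made only of A and T served as a comparison, in the 98 windows whose summit lay far enough from the window's edges. TAAT had 13.1 matches per kb within 50 bases of the summit and 4.95 per kb in the rest of the same windows, a ratio of 2.64. This ratio was the highest of the 10 such words. AATT, which TAATTA contains, followed at 2.27, and the others lay between 0.667 for TATA and 2.13 for TTAA. In 69 of the 98 windows (70.4%, 60.7 to 78.5%) a TAAT core lay within 50 bases of the summit.

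**Figure D1:**
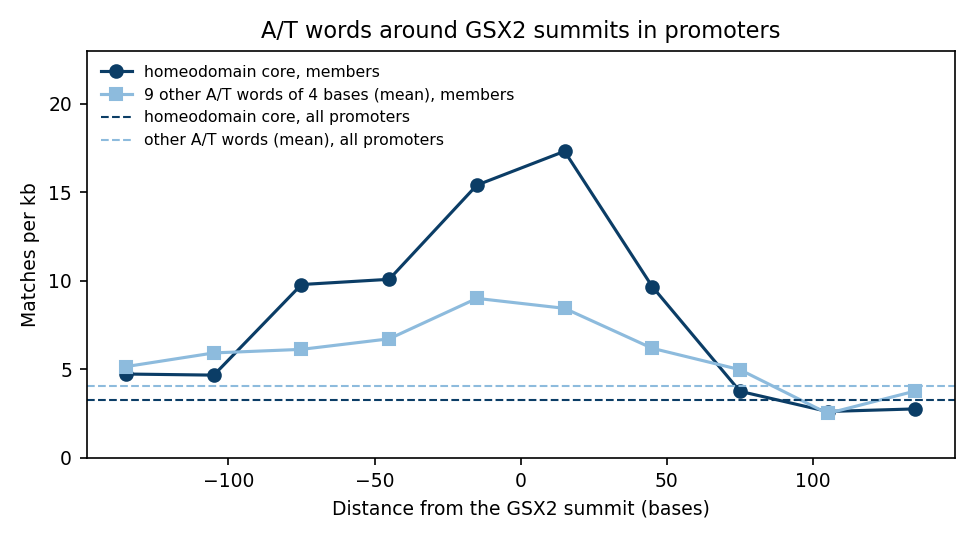
Matches per kb of the homeodomain core (dark line) and of 9 other A/T words of 4 bases (light line, mean per word) by distance from the GSX2 summit in bases, over 141 member promoter windows; negative distances are toward the 5′ end of the window, and dashed lines give the same rates over all protein-coding promoters. The core reaches 17.3 per kb in the 30 bases after the summit and 15.4 in the 30 before it, against 3.24 over all promoters. It is at 4.73 in the outermost bin upstream and at 2.76 in the outermost bin downstream. The other words also rise, to 8.45 per kb in the 30 bases after the summit and 9.01 in the 30 before it, against 4.07 over all promoters.

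Pairs of cores were more frequent in member windows than in all windows as a whole. At least 1 pair of TAAT words with 0 to 12 bases between them stood in 29 of 141 member windows (20.6%, 14.7 to 28.0%), against 7.85% of all windows. The overlapping cores inside TAATTA are not counted as a pair. Within classes of GC content, a pair stood in 11 of 27 member windows below 50% GC (40.7%, 24.5 to 59.3%), against 29.0% of all windows of that class, a share inside the interval. Between 50 and 60% GC it stood in 13 of 55 (23.6%, 14.4 to 36.3%) against 6.76%, and between 60 and 70% in 5 of 50 (10%, 4.35 to 21.4%) against 1.76%. At 70% GC or more, none of 9 member windows held a pair, against 0.316%. The gaps of 4, 7 and 9 bases each occurred in 7 member windows (4.96%), against 1.05%, 0.999% and 0.868% of all windows in the order of the gaps. Gaps of 6, 8 and 10 bases occurred in 2, 1 and 3 member windows. These counts are small, and gaps were not tested against each other. Words of other factors differed less. The ETS core CCGGAA stood in 46 of 141 member windows (32.6%, 25.4 to 40.7%), against 21.1% of all windows. ACAAAG, a SOX and TCF type word, stood in 18.4% (12.9 to 25.6%) against 13.6%. The intervals of CCAAT (39.0% against 34.7%), of GGGCGG, the GC box (53.2% against 56.3%), of TGACGTCA, the CREB site (3.55% against 2.25%), of ATGCAAAT, the POU octamer (1.42% against 1.65%), of the NRF1 palindrome (0.709% against 1.49%) and of TATAAA (6.38% against 9.49%) all hold the share of all windows. The E-box CAGCTG stood in 16 of 141 member windows (11.3%, 7.11 to 17.6%), against 18.0% of all windows and 17.3% of all windows of genes with a member. The wider E-box CANNTG stood in 56.0% (47.8 to 64.0%), against 65.1% of all windows and 60.1% of windows of genes with a member. Both E-box shares were thus below those of all windows, while the shares among windows of genes with a member lie inside the intervals. The words of other factors were not split by GC content.

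Windows with and without the core differed in strength. In replicates 1, 2 and 3 the median fold enrichment was 7.66, 7.42 and 7.99 in windows with TAAT, against 5.75, 5.97 and 6.28 in the 17 windows without it. The difference was 1.69 ± 0.23 (SD, n = 3) and positive in 3 of 3 replicates. For TAATTA the medians were 9.22, 8.26 and 7.73 with the palindrome, against 6.87, 7.30 and 7.65 without it, and the difference of 1.13 ± 1.14 was no larger than its spread. The ETS core went with weaker summits. Medians were 6.36, 6.30 and 6.69 with CCGGAA, against 7.74, 7.87 and 8.08 without it, a difference of -1.45 ± 0.10. An exact two-sided sign-flip permutation test over 3 replicates gave p = 0.25 for each of the 3 words, the smallest it can give, so none could pass a threshold of 0.05. Split into 3 sets of 47 by mean fold enrichment, from the lowest to the highest set, TAAT stood in 76.6%, 91.5% and 95.7% of windows, TAATTA in 4.26%, 23.4% and 23.4%, and CCGGAA in 40.4%, 42.6% and 14.9%. Median GC content was 58.7%, 57.0% and 57.7% in the same sets.

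**Figure D2:**
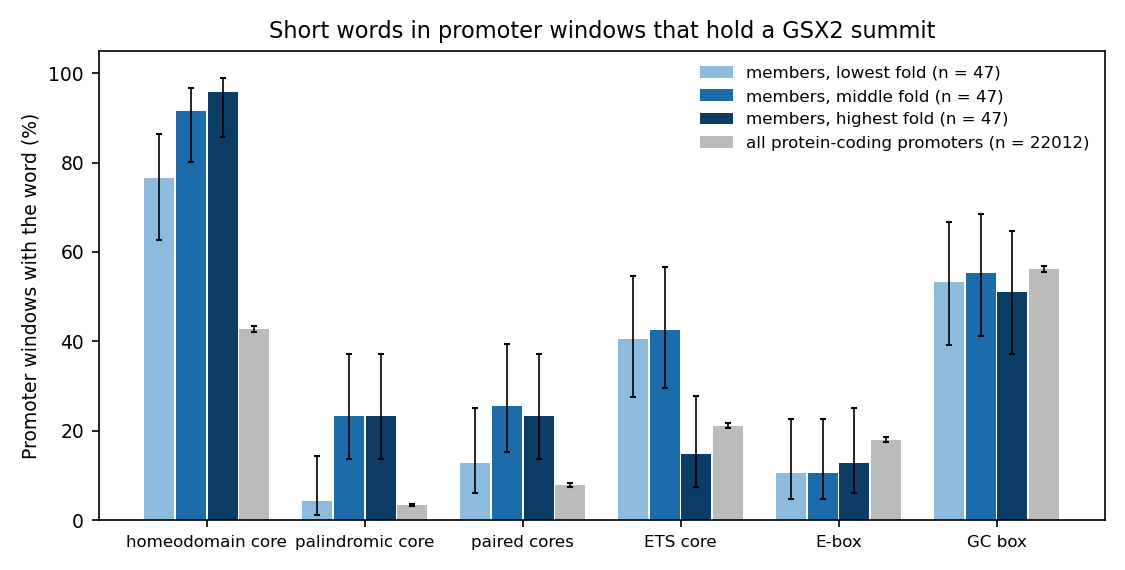
Percent of promoter windows (y axis) that hold each short word (x axis) on either strand, for member windows in 3 sets of 47 by mean fold enrichment and for all 22012 protein-coding windows; error bars are 95% Wilson intervals. The homeodomain core stands in 76.6% of the weakest and 95.7% of the strongest member windows against 42.7% of all windows, while the ETS core stands in 14.9% of the strongest.

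The members gathered at gene starts, and mostly just before them. The promoter table gave a strand for 500 of the 598 nearest ends, and 423 of these were starts (84.6%, 81.2 to 87.5%) and 77 the other end of the gene. The strand of the remaining 98 was not used here. Of the 423, 278 had their summit upstream of the start (65.7%, 61.1 to 70.1%). Using the summits of replicates 1, 2 and 3 alone, the upstream share was 65.2%, 66.2% and 67.1%, a mean of 66.2% ± 0.9 (SD, n = 3). Counted by 100 bases, 50 members lay in the last 100 bases before the start, 49 and 42 in the next stretches upstream, and 20 in the first 100 bases after it. Over all peaks of each list, 184, 129 and 180 summits of replicates 1, 2 and 3 fell within 250 bases upstream of a start, and 72, 60 and 66 within 250 bases downstream. At the other end of genes the same stretches held 17, 15 and 22 before the end and 16, 13 and 15 after it. The counts at starts and at other ends did not overlap in any replicate. Strength was slightly lower nearest the start. At up to 250, 250 to 500 and 500 to 1000 bases from a start there were 166, 100 and 157 members. The median of their mean fold enrichment was 7.24, 7.54 and 7.29. In replicates 1, 2 and 3 alone the nearest class was lowest each time, at 7.18, 7.501 and 7.63. The medians were 7.698, 7.73 and 8.07 at 250 to 500 bases, and 7.503, 7.92 and 7.73 at 500 to 1000. The order of the farther classes thus differed between replicates, and the differences were not tested. The median of the mean fold enrichment was 8.34 for members at other ends and 7.30 for those at starts.

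**Figure D3:**
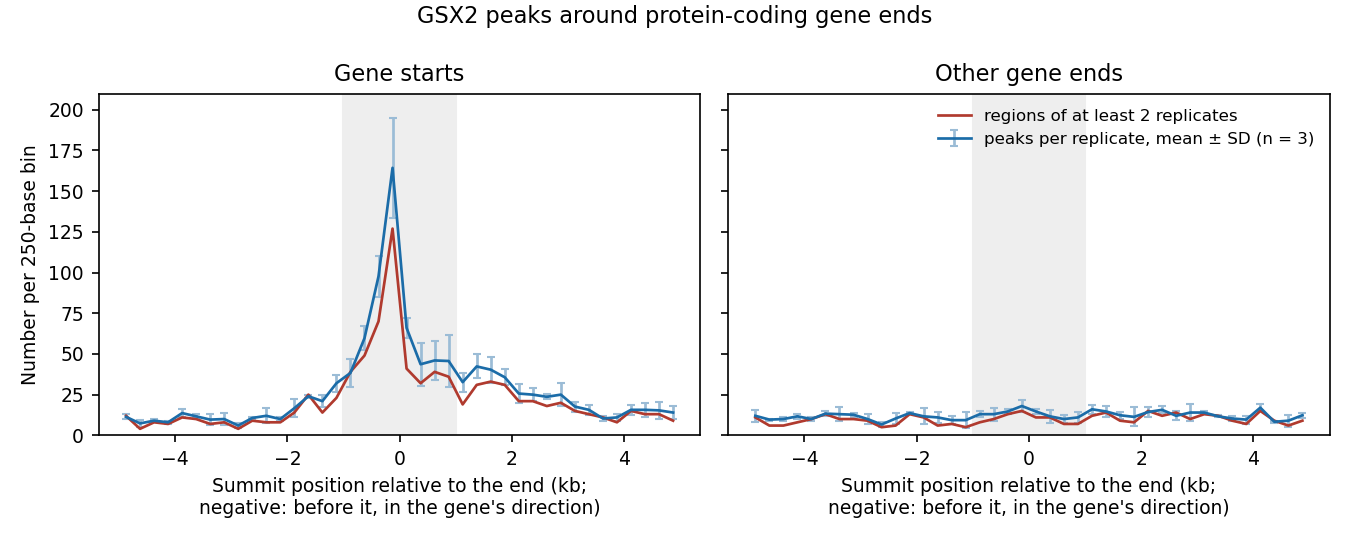
Number of GSX2 summits per 250-base bin (y axis) by position relative to protein-coding gene starts (left) and other gene ends (right) in kb along the direction of the gene; blue is the mean ± SD of peaks over 3 replicates, red the regions of at least 2 replicates, and grey marks the 1 kb that defines the members. The bin before the start holds 164 ± 31 peaks per replicate and 127 recurrent regions, and the bin before the other end 18.0 ± 3.6 peaks and 15 regions.

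Members were somewhat weaker than the other 6507 recurrent regions as a whole. Their median fold enrichment was 7.61, 7.70 and 7.76 in replicates 1, 2 and 3, against 8.29, 8.46 and 8.37 in the others. The difference was -0.68 ± 0.08 (SD, n = 3), lower in 3 of 3 replicates (exact two-sided sign-flip permutation test, p = 0.25, the smallest possible). Among peaks whose −log10 q reached 10 it was 0.03 ± 0.31, smaller than its spread, and with a window of 2 kb it was -0.39 ± 0.17. Against the 356 recurrent regions at ends of noncoding genes only, with medians of 7.91, 7.93 and 7.89, the members were lower by a smaller amount, -0.22 ± 0.08 (exact permutation p = 0.25). Peaks of all 3 replicates stood in 45.2% of members (41.2 to 49.2%) and in 50.2% of other recurrent regions (49.0 to 51.4%). At ends of noncoding genes only the share was 46.9% (41.8 to 52.1%), near that of members. Member peaks were 334, 245 and 258 bp wide at the median, against 306, 238 and 246 bp, a difference of 15.7 ± 10.97 bp (exact permutation p = 0.25). The replicates' summits lay within 100 bases of each other in 82.8% of members and 88.5% of the others. Among members of 2 replicates, 167 lacked a peak of replicate 2, the shortest list, and 67 and 94 lacked one of replicates 1 and 3.

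The strongest member lay in GSX2 itself (chr4:54101581-54101918), 750 bases inside the far end of the gene, with 21.5-fold, 50.9-fold and 25.2-fold enrichment in replicates 1, 2 and 3. A second GSX2 region (chr4:54100348-54100919) had its median summit 272 bases after the start, at 13.3-fold, 15.5-fold and 20.2-fold. The replicates' summits in this second region were spread over 422 bases, so its position is loosely set. Replicate 2 was at least 2 times the others at the far-end region and not at the region near the start. The transgene carries the GSX2 coding sequence as well, and its part in these peaks was not tested. MTCL3, a microtubule-associated gene, followed with 28.0-fold, 32.4-fold and 36.4-fold at 912 bases before its start (chr6:127520001-127520494). METTL25 and CCNG1, shown above, were also among the 5 strongest. So was a region 989 bases from an end of CFAP418, a cilium gene (20.3-fold, 28.7-fold and 29.3-fold). ZNF764, a zinc finger gene, had 15.2-fold, 29.9-fold and 31.0-fold at 378 bases before its start, with replicate 1 below the others. KDM4A, a histone H3 lysine demethylase gene, had 25.5-fold, 17.7-fold and 23.2-fold at 591 bases before its start (chr1:43649357-43649871). The order among these regions is not resolved by 3 replicates.

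The rest of the 20 strongest stood at genes of varied roles. GPX8, a glutathione peroxidase family gene, had 23.4-fold, 31.4-fold and 17.6-fold, and MTF1, a metal-responsive transcription factor gene, 30.4-fold, 23.3-fold and 17.5-fold at its far end, which lies beside C1orf122. TBC1D9, of the Rab GTPase-activating family, had 19.7-fold, 24.6-fold and 24.2-fold. A region between the collagen genes COL4A5 and COL4A6, which are transcribed away from each other, had 23.7-fold, 18.5-fold and 20.6-fold. OSBPL3, NEBL, TLE2, NCKAP5, FIGN and NNMT had means of 16.3 to 19.9-fold. TLE2 encodes a Groucho-type corepressor and had 19.2-fold, 15.8-fold and 18.7-fold at 424 bases after its start (chr19:3046995-3047475). SPDYE14 and SPDYE10, with means of 24.6 and 23.1-fold, belong to a family of 19 genes with near-identical copies, so their values are uncertain. Over members of all 3 replicates the mean fold enrichment ran from 4.73 to 32.5 with a median of 8.96, and over members of 2 replicates from 4.39 to 17.1 with a median of 6.70. Only 27 members averaged 15-fold or more (4.52%, 3.12 to 6.49%), against 400 of the other recurrent regions (6.15%, 5.59 to 6.76%).

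**Figure D4:**
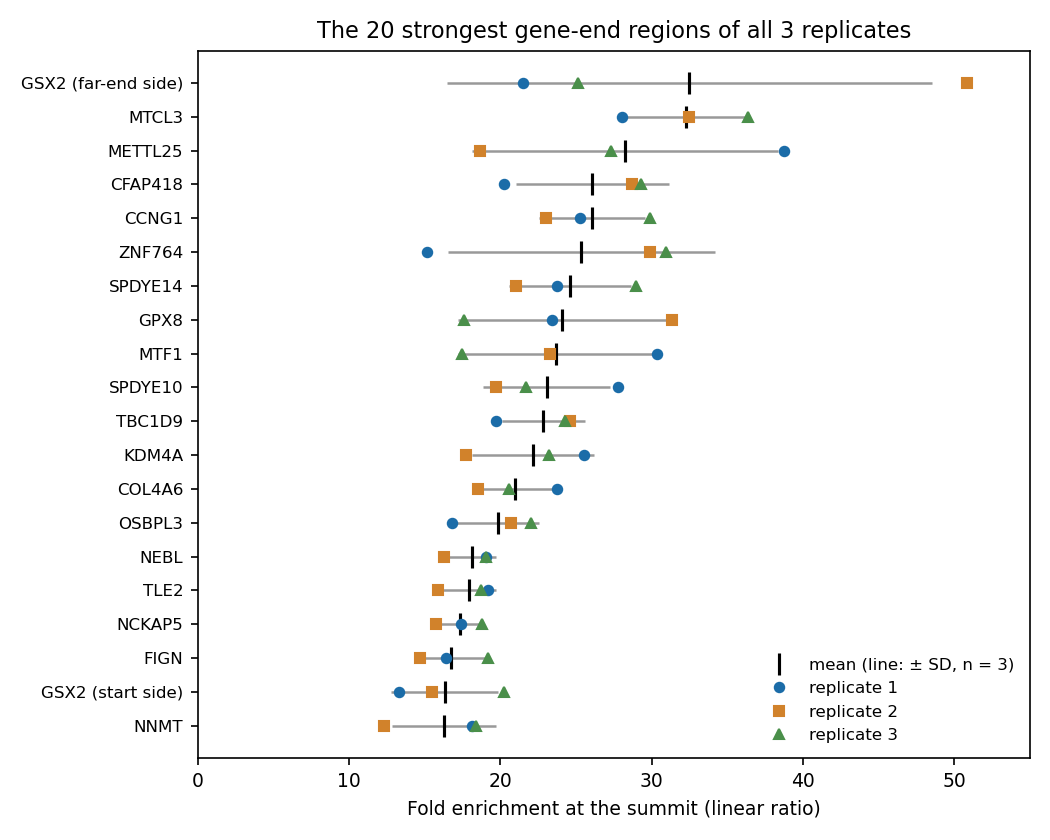
Fold enrichment at the summit (x axis, linear ratio) in each replicate for the 20 gene-end regions of highest mean among those with peaks in all 3 replicates; the tick is the mean and the line ± SD (n = 3). The GSX2 far-end region spreads from 21.5 to 50.9-fold, and most lines overlap those of their neighbours.

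Among gene lists, those of the pallium, of ganglionic eminence progenitors and of FGF, BMP and retinoid signalling had the largest shares of genes with a member. The background was 672 of 19974 protein-coding genes (3.36%), or 310 (1.55%) for members of all 3 replicates. The 22 lists held 668 genes, of which 51 had a member. The pallial list led with 5 of 22 genes (22.7%, 10.1 to 43.4%), then the ganglionic eminence list with 4 of 20 (20%, 8.07 to 41.6%), FGF, BMP and retinoid signalling with 6 of 39 (15.4%, 7.25 to 29.7%) and other homeobox genes with 10 of 81 (12.3%, 6.85 to 21.3%). In all 3 replicates these lists had 1, 4, 3 and 6 such genes. Without replicates 1, 2 and 3 in turn the pallial count was 2, 1 and 4, the FGF, BMP and retinoid count 3, 3 and 6, the homeobox count 9, 6 and 7, and the ganglionic eminence count 4 each time. These 4 include GSX2 itself, whose coding sequence the transgene carries. Without the regions at GSX2, SPDYE10 and SPDYE14 the ganglionic eminence count was 3 of 20. The pallial, FGF, BMP and retinoid, and homeobox counts then stayed at 5, 6 and 10. The place of the ganglionic eminence list ahead of FGF, BMP and retinoid signalling thus rested on GSX2. The median over hit genes of the strongest mean fold enrichment was 8.31 for the pallial list, 8.38 for the ganglionic eminence list, 10.2 for FGF, BMP and retinoid signalling and 8.20 for other homeobox genes, against 7.51 over all genes with a member. Lists were chosen with earlier results of these data known, so the counts are descriptions.

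In the ganglionic eminence list, the genes other than GSX2 had moderate regions. SP8, which encodes a zinc finger factor, had 8.47-fold, 9.50-fold and 7.29-fold, 19 bases past its far end. MEIS1, a TALE homeodomain gene, had 8.67-fold, 6.91-fold and 9.44-fold, 671 bases past its far end. SIX3, a rostral forebrain homeobox gene, had 7.96-fold, 6.67-fold and 5.84-fold at 135 bases from an end. Of the pallial genes, EMX2, a homeobox gene of the cortex primordium, had 9.55-fold and 11.2-fold in replicates 1 and 2, and no peak in replicate 3, at 58 bases before its start. DMRTA2, a dorsal telencephalic transcription factor gene, had 9.001-fold and 8.78-fold in replicates 2 and 3, FEZF2, a determinant of deep-layer neurons, 8.05-fold and 8.57-fold in replicates 1 and 2, and the proneural gene NEUROG2 5.08-fold and 9.01-fold in replicates 1 and 2. FEZF1 alone of the 5 had all 3 peaks, at 7.24-fold, 4.89-fold and 6.37-fold. The pallial regions were therefore mostly of 2 replicates. The list of diencephalon, eye and caudal neural tube had 2 of 33, TCF7L2 and OTX1, with means of 6.501 and 5.76-fold in 2 replicates each.

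No member lay at GSX1, DLX1, DLX2, DLX5, DLX6, PAX6, NKX2-1 or GLI3. Of all protein-coding genes only 3.36% had a member, so an absence at so few genes is within the background. The nearest recurrent region to an end was 2.35 kb away for PAX6, 29.4 kb for GLI3, 36.7 kb for NKX2-1 and 47.5 kb for GSX1. It was 309.6 kb for DLX6, 324.4 kb for DLX5, 869.3 kb for DLX2 and 882.6 kb for DLX1. These genes encode transcription factors that pattern the forebrain or drive the formation of its neurons.

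Other homeobox genes with a member included ZFHX4, with 16.1-fold, 13.04-fold and 14.4-fold at 46 bases from an end. VENTX had 10.7-fold, 12.2-fold and 10.6-fold at 100 bases before its start. MSX2 is shown above. POU3F3, a neural POU factor gene, had 9.71-fold, 9.21-fold and 5.84-fold at 129 bases before its start. ADNP, ALX1, GSC, PROX1 and ZEB2 were also among the 10, with means of 5.47 to 8.15-fold.

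Of the 6 genes of the FGF, BMP and retinoid list with a member, 5 encode inhibitors of FGF and ERK signalling, a grouping made after the values were seen. DUSP6, a phosphatase that switches off ERK, had 12.6-fold, 15.8-fold and 18.2-fold at 128 bases before its start (chr12:89352311-89353159). A second region 859 bases past its far end had 6.07-fold and 8.61-fold in replicates 1 and 2. SPRY4, a Sprouty inhibitor of receptor tyrosine kinase signalling, had 11.7-fold, 8.65-fold and 15.8-fold at 8 bases before its start. SPRED1, a Sprouty-related inhibitor, had 8.37-fold, 11.2-fold and 13.4-fold at 852 bases after its start, and 5.29-fold and 8.10-fold in replicates 1 and 3 at 827 bases before it. SPRY1, SPRED2 and the receptor gene FGFR1 had means of 7.62, 6.57 and 9.40-fold in 2 replicates each. Of the 7 genes with SPRY or SPRED symbols, 4 had a member, a family picked after its values were seen. Of the 25 genes with DUSP symbols, DUSP6 alone had one (4%), near the 3.36% of all protein-coding genes. No BMP, SMAD, ID or retinoid gene of the list was among the 6.

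The Notch list had 3 of 30 genes, with an interval of 3.46 to 25.6%, and the Groucho corepressors TLE2 and TLE4 were among them. TLE4 had 17.0-fold, 6.39-fold and 12.8-fold at 754 bases before its start (chr9:79570988-79571368). Of the members of all 3 replicates it had the widest ratio between replicates, 2.66. A weaker TLE4 region 153 bases after the start had 6.51-fold and 5.42-fold in replicates 1 and 3. JAG1, a Notch ligand gene, had 12.5-fold, 21.04-fold and 10.1-fold at 75 bases past its far end. HES5, a Notch target gene held in the neural progenitor list, had 7.81-fold, 10.8-fold and 10.1-fold at 153 bases before its start. It and LIN28A, at 4.91-fold in 2 replicates, were the 2 of 22 genes of that list. Hedgehog and Wnt genes had 4 of 36 (11.1%, 4.41 to 25.3%). FZD2 and FZD8, Wnt receptor genes, averaged 10.9 and 7.12-fold, SUFU, an inhibitor of GLI factors, 8.33-fold and DKK1, a Wnt antagonist, 4.41-fold. SUFU alone of these had peaks in all 3 replicates, and without replicates 1, 2 and 3 in turn the count of the list was 1, 3 and 2. RCOR1, a CoREST corepressor gene, was the 1 hit among the 39 genes of the chromatin regulator list. It had 15.0-fold, 12.3-fold and 12.9-fold at 531 bases before its start (chr14:102591844-102592356). That list does not hold KDM4A, the histone demethylase gene with a member described above.

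For most other lists the interval held the background of 3.36%. No gene had a member among 27 of striatal and GABAergic neurons, 23 of neuronal differentiation, 33 of RNA polymerase and splicing, 20 of liver or 20 of blood. At these sizes a count of 0 leaves upper Wilson limits of 10.4 to 16.1%, so a share at the background is within them. The lists do not hold every gene of their kind. The promoter of CDC40, the splicing factor gene shown above, held a member's summit, and CDC40 is not counted in the splicing list. Cell cycle genes had 1 of 33 (CDKN2C, 7.77-fold), immediate early and stress genes 1 of 32 (GADD45A, 7.63-fold) and skeletal muscle 1 of 20 (MYH2, 8.33-fold). Ribosomal and translation genes had 2 of 33, RPL3 (5.68-fold) and RPS14 (5.50-fold), and mitochondria and metabolism 2 of 32, CS (9.07-fold) and PKM (6.99-fold). Axon guidance and adhesion genes had 2 of 27, EPHA7 (7.99-fold) and ROBO2 (6.07-fold). Pluripotency genes had 2 of 17, SALL4 (7.48-fold) and SALL1 (5.54-fold). Replication-dependent histone genes had 3 of 29 (10.3%, 3.58 to 26.4%), H2BC5, H2BC21 and H3C1, with means of 10.6, 8.02 and 7.73-fold, and their near-identical copies can share reads.

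**Figure D5:**
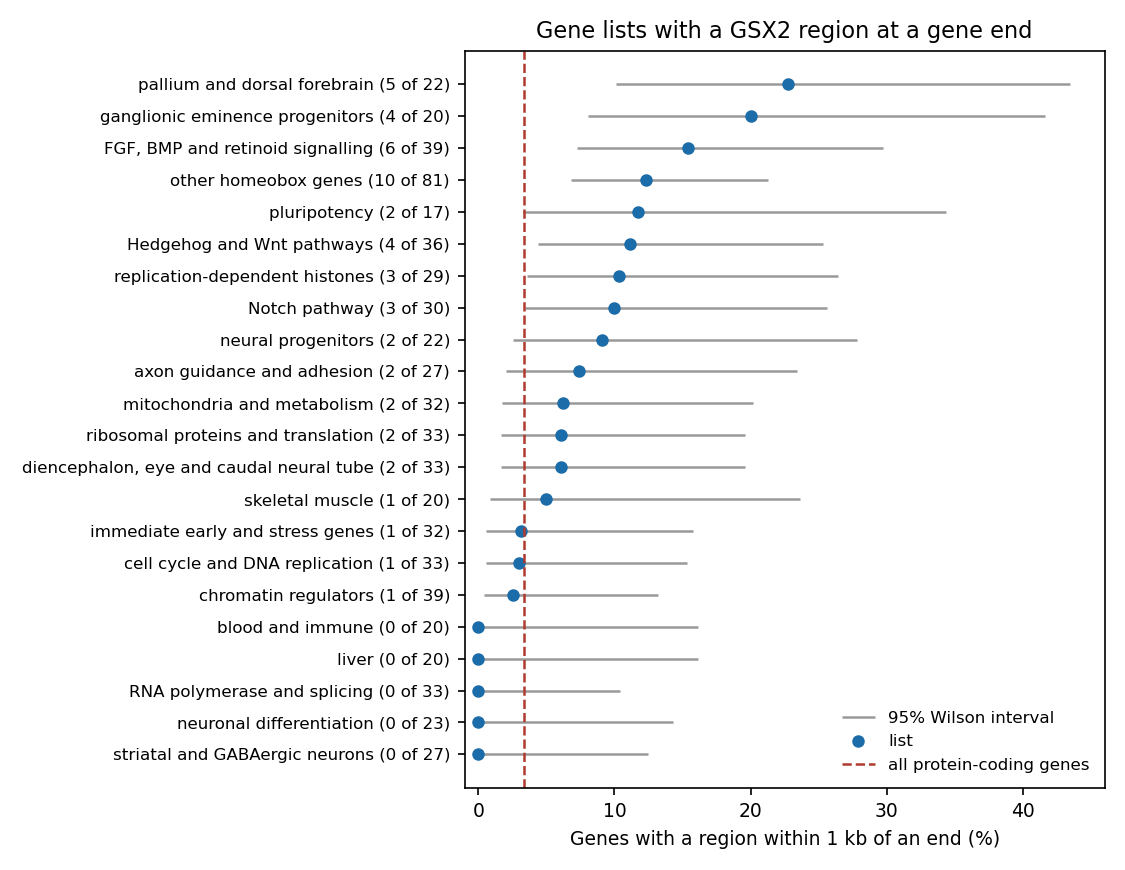
Percent of the genes of each list with a GSX2 region within 1 kb of an end (x axis); points are lists with hit and total genes in brackets, lines are 95% Wilson intervals, and the dashed line is the 3.36% of all protein-coding genes. Of the 22 lists, 14 stand to the right of the line, from 5% for skeletal muscle to 22.7% for the pallium, and 5 stand at 0, that of striatal and GABAergic neurons among them.

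There were 8 genes with 2 members each. Besides GSX2, DUSP6, SPRED1, TLE4 and COL4A5 (20.9 and 8.69-fold) they were CITED2, a transcriptional coregulator gene, with regions at its start and its far end (5.57 and 5.40-fold in 2 replicates each), EPHA7, an Eph receptor gene (7.99 and 5.08-fold) and SALL4, a zinc finger gene of pluripotent cells (7.48 and 5.29-fold).

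Some members were near a further gene. Ends of 2 or more protein-coding genes lay within 1 kb of 77 members (12.9%, 10.4 to 15.8%). In 33 members (5.52%, 3.96 to 7.65%) these were starts of genes transcribed away from each other, with a median of 7.76-fold. Neither share was set against all protein-coding gene ends, so whether they are high is not known. A noncoding gene end lay within 1 kb of 113 members (18.9%, 16.0 to 22.2%) and of 356 other recurrent regions (5.47%, 4.94 to 6.05%). For 94 members this was a long noncoding RNA gene, for 6 a tRNA gene and for 3 a microRNA gene. By definition the other recurrent regions lie more than 1 kb from any protein-coding end. The shares near noncoding ends therefore come from unlike positions, and ends of protein-coding genes at large were not compared. Another recurrent region stood within 50 kb of 27.3% of members (23.8 to 31.0%) and of 33.8% of the others (32.6 to 34.9%), while within 5 kb the shares were 10.0% (7.87 to 12.7%) and 8.31% (7.67 to 9.01%). At the 1 kb limit, the last members inside were at PTCHD4 (992 bases, 9.33-fold in 3 replicates) and PRMT9 (996 bases, 6.91-fold in 2). The closest regions outside were at WSB1 (1002.5 bases, 6.42-fold in 2) and RHCG (1004 bases, 6.62-fold in 2). Across members, fold enrichment in pairs of replicates had Spearman coefficients of 0.591 to 0.632 over 337 to 437 regions, which are not independent.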

How the data were processed

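Peaks of 3 ChIP replicates were used. Build hg38 and the tools Bowtie2, MACS3, SAMtools, deepTools and Trim Galore are named per the submitters' processing notes. Versions, settings and any use of input as control were not given in the sources used here. Peaks were called for each replicate, and in the deposited lists fold enrichment is a linear ratio and significance a −log10 p and −log10 q (smallest 3.0). The deposited score was not used. A peak with several summits was reduced to the one of highest fold enrichment, and 77, 64 and 82 peaks on other contigs were left out. The lists give no counts, so a missing peak can reflect depth.

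Intervals overlapping by 1 bp or more were merged, and a region's position was the median of its replicates' summits. Gene spans, strands and promoter windows came from RefSeq tables of GRCh38.p14, the build of hg38. A window was found for 559 of the 672 genes with a member. Python 3.11.15, pandas 2.3.3 and scipy 1.17.1 were used. Wilson intervals cover counting error only. Medians were compared per replicate with an exact sign-flip permutation test. Merging and distances were tested on simulated data, where 191 of 191 planted sites were recovered. Each site was planted in all 3 replicates with summits close together, so this checks the code only. Regions of 2 replicates and widely spread summits were not simulated. The members and gene lists were chosen with earlier results of these data known. Chosen after seeing the data were the single word TAAT, the classes of GC content and of fold enrichment, the 10 A/T words and the profile around the summit, fold enrichment with and without a word, distance classes, the 15-fold limit, neighbours within 5 and 50 kb, symbol families, and bins of 250 bases beside the planned 100. Genes were named by a rule: 11 regulators whatever their values, the 20 strongest members of all 3 replicates, genes with 2 or more members, and up to 3 genes per list, or all where 5 or fewer. Further list genes named in the text were chosen after their values were seen. Results for some of these genes are left out here. Alternatives were the number of replicates, −log10 q, overlap, window, summit, biotypes and leaving out a replicate.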

Additional observations from a re-analysis of the deposited data

How the results depend on the processing

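The number of members and of genes followed the definition. Members numbered 270 with peaks of all 3 replicates required, 246 with a −log10 q of at least 10, 370 with a window of 500 bp and 954 with all gene biotypes, and 333 to 436 without any 1 replicate. The genes numbered 310, 284 and 409 in the first 3 of these settings, and 382 to 497 without a replicate. The share of recurrent regions was 7.63%, 6.98%, 5.21% and 13.4% in the same 4 settings, 12.4% with a window of 2 kb and 7.52 to 8.41% without a replicate. The share of members at starts was 78.6% with a −log10 q of at least 10 and 78.8% with all biotypes. The share in all 3 replicates was 51.6% with a −log10 q of at least 10. The lower fold enrichment of members turned round to a difference of 0.0266 at a −log10 q of at least 10, where weak peaks are absent by construction. It was -0.75 to -0.39 in every other setting, including one chosen after seeing the data, without GSX2, SPDYE10 and SPDYE14 (-0.72). The share of promoters with TAATTA stayed between 16.5% and 19.7%. Among counts of genes per list under each setting, 65 moved by more than 1.5 times and 177 did not. The 177 include counts that stayed at 0, since 5 lists had no gene with a member. Of 72 named genes, 44 still had a member when peaks of all 3 replicates were required. With 1 window per gene, at the end of its span, TAATTA stood in 3.38% of all windows. No paired analysis was possible because the input libraries that share replicate numbers with the ChIP libraries have no values here. Depth is unknown and limits what a missing peak shows.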
